A study of Rattus norvegicus with 14 samples.

Results

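Ganglia from the side of a nerve and muscle graft were compared with ganglia from the unoperated side of the same animal, 6 weeks after the operation. The comparison rests on 6 of the 14 libraries of the series, chosen by the time in their titles and paired by the rat letter, which gave 3 pairs from rats A, B and E. All were wild-type male rats (Rattus norvegicus), and each library held RNA of dorsal root ganglia L2 to L5. In the surgical group the extensor digitorum longus, a muscle of the lower leg, had been grafted to the saphenous nerve, a skin nerve of that limb. The control group came from the opposite, intact limb, so no rat was without surgery, and no sham operation was named. The labels gave no age, strain or pooling of ganglia. The other 8 libraries, from rats D, C, G and H, were the same pair of groups at 8 weeks, and are used here to estimate the spread and as a reference. The 6-week libraries held between 18489118 and 21029173 estimated counts.

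Dorsal root ganglia contain the somata of primary sensory neurons, wrapped by satellite glia, with myelinating Schwann cells along the axons and with vessels, fibroblasts and macrophages between them. When a peripheral axon is cut, the neuron switches on injury transcription factors such as Atf3, Sox11 and Jun and neuropeptides such as galanin and VIP, and lowers many genes of its mature state. Sensory axons are long and are supplied with mitochondria made in the soma. The respiratory chain is built from a few subunits encoded in the mitochondrial genome and many more encoded in the nucleus, which are imported through the TOM and TIM complexes. Their genes share promoter elements for the factors NRF1, GABP (an ETS factor) and YY1.

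Of 84 tested nuclear genes of the respiratory chain 54 (64.3%) lay lower on the surgical side in all 3 rats, where 13.1% of all genes did. RefSeq promoters (build GRCr8) are shown for the 4 members of the respiratory chain and import lists with the smallest p values that had an entry whose window overlapped no other gene. Each is the 250 bases before the annotated start, 5′ to 3′ on the strand of the gene. Capitals mark letters matching an NRF1 motif, an ETS motif (CCGGAAG) or a YY1 motif (AAGATGGCG), searched on both strands. Cox7b lies at chrX:75148786-75149035 on the plus strand, Ndufa4 at chr4:40975560-40975809 on the minus strand, Tomm7 at chr4:12197253-12197502 on the plus strand and Atp5mg at chr8:54130408-54130657 on the minus strand.
Cox7b: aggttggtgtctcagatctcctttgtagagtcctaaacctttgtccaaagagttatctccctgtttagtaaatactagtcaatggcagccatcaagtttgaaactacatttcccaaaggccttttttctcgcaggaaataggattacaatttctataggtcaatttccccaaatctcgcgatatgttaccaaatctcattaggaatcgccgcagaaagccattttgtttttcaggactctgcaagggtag
Ndufa4: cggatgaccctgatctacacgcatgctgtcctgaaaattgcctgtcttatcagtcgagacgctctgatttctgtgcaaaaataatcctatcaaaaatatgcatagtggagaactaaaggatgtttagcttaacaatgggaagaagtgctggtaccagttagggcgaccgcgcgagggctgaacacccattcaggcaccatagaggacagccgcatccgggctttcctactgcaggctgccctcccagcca
Tomm7: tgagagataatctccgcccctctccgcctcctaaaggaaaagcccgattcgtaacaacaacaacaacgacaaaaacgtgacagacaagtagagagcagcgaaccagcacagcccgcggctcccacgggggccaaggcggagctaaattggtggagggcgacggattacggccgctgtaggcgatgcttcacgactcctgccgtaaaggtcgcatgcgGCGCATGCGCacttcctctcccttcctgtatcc
Atp5mg: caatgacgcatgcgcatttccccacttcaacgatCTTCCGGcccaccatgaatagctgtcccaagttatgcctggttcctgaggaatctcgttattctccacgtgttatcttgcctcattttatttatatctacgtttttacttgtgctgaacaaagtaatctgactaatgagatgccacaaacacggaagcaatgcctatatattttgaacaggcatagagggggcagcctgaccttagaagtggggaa
Tomm7 held 1 NRF1 match, Atp5mg 1 ETS match, and Cox7b and Ndufa4 none of these letters in this window. Of the 71 promoter entries matched by symbol to the respiratory chain list, 19 (26.8%) held the ETS letters and 11 (15.5%) the NRF1 letters. Among the 38 entries of the import and mRNA stability list the counts were 16 (42.1%) and 6 (15.8%). Over all 33469 promoters of the same length the shares were 7.27% and 3.75%. The YY1 letters stood in 1 entry of each list and in 0.693% of all promoters. A match is a description of the letters and not a measured binding site.

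Every 6-week library held defining transcripts of sensory neurons, with the neuronal tubulin Tubb3 at 203 to 1901 TPM and the neuronal filament gene Prph at 163 to 1609 TPM. TPM is a unit scaled to transcript length and library size. The 6 libraries differed in the tissue they held. Levels here are the mean log2 CPM of a marker list, where CPM are counts scaled to library size and by TMM. The 20 sensory neuron markers stood in rat A at 7.79 (control) and 5.97 (surgical), in rat B at 6.77 and 8.04, and in rat E at 8.71 and 8.72. The neuronal level was thus lower on the surgical side of rat A, higher on that of rat B, and nearly equal in rat E. The spinal cord list stood at 5.90 on the surgical side of rat B against 1.48 to 2.40 in the other 5 libraries. The muscle list stood at 5.15 on the surgical side of rat E against 1.74 to 2.96 elsewhere. The libraries of rat E also held less blood, with haemoglobin transcripts at 30681 and 39981 TPM against 120724 to 160226 TPM in rats A and B. In bulk RNA, fewer cells of a type and less RNA per cell cannot be told apart.

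**Figure D1:**
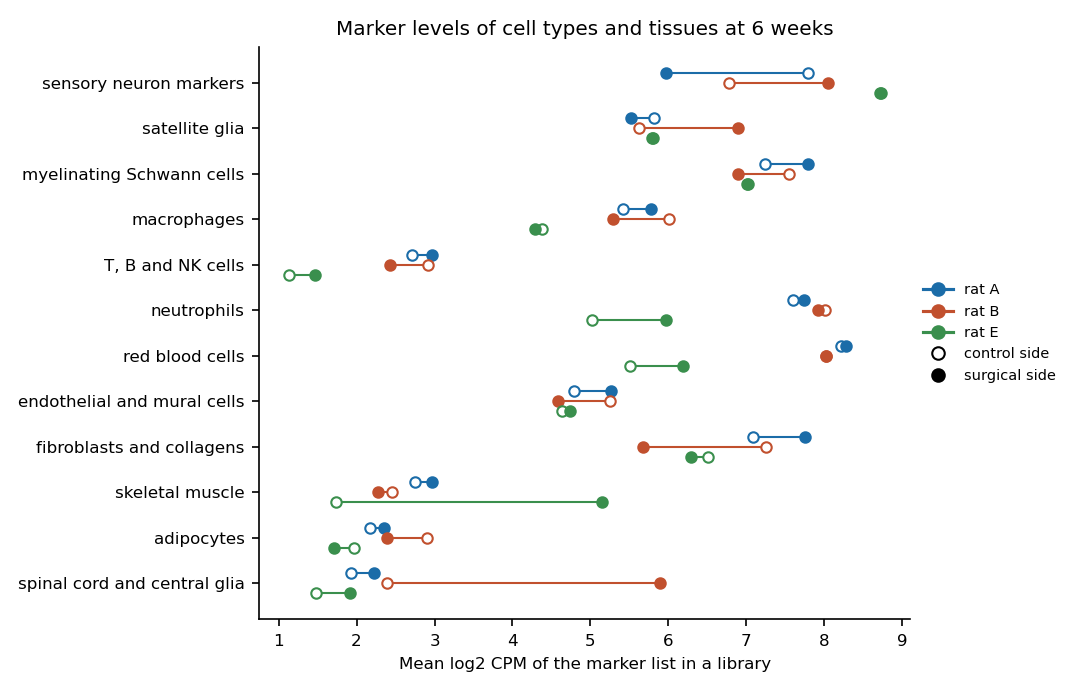
Mean log2 CPM of 12 marker lists (rows) in each 6-week library, with open circles for the control side, filled circles for the surgical side and a line joining the sides of each rat. Rat A has the low surgical neuronal level of 5.97, rat B the high surgical spinal cord level of 5.90 and rat E the high surgical muscle level of 5.15.

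No gene passed the test at 6 weeks. With edgeR's quasi-likelihood test, the rat as a block and Benjamini-Hochberg adjustment, 0 of 17035 genes (0%) had an adjusted p under 0.05, and the smallest adjusted p was 0.999. At an unadjusted p under 0.05 there were 546 genes (3.21%), 186 higher (1.09%) and 360 lower (2.11%) on the surgical side, so 34.1% were higher. That split depended on the scale: 41.8% were higher with DESeq2, 55.8% with the trend in transcript length removed, and 66.0% with limma on log2(TPM + 0.1). DESeq2 called 44 genes on the same counts (0.258%), 5 higher (0.0294%) and 39 lower (0.229%), with an adjusted p of NA for 2643 genes. limma called 0 with either added constant. A fit with no term for the rat gave 2 calls, both lower, which were Slirp and Timm8b. Higher and lower therefore describe where the values lay, not a passed test.

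The 3 pairs differed from each other across the genome. Across the 17035 genes the side difference of rat A had a Spearman correlation of -0.42 with that of rat B and 0.10 with that of rat E, and those of rats B and E correlated at 0.28. Genes are not independent, and the pairs share no library. The difference had the same sign in rats A and B for 35.3% of genes, in A and E for 54.1% and in B and E for 61.3%. The pairs also differed in spread: 27.0% of genes differed by at least 1 log2 unit between the sides of rat B, 12.8% in rat A and 5.91% in rat E. In all 3 rats the surgical side was higher for 2098 genes (12.3%) and lower for 2224 (13.1%). The 3 surgical libraries lay above the 3 controls without overlap for 445 genes (2.61%) and below them for 795 (4.67%). By at least 1 log2 unit in each rat, 23 genes (0.135%) were higher and 11 (0.0646%) lower. The fitted difference was positive for 8344 genes (49%) and negative for 8691 (51%).

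**Figure D2:**
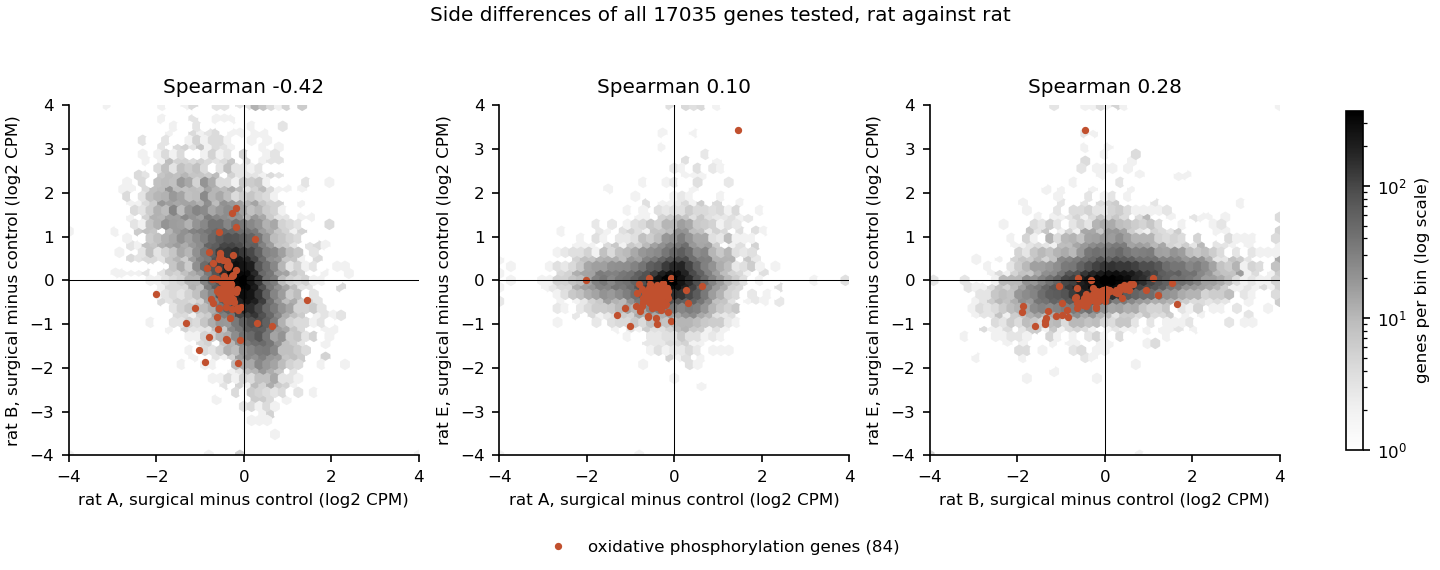
Surgical minus control difference in log2 CPM of each of the 17035 genes tested in one rat (x) against another (y), as bins shaded by the number of genes and clipped at 4 units from 0. The 84 nuclear respiratory chain genes, in red, sit mostly below 0 in all 3 rats, while the whole cloud runs downward for rats A and B (Spearman -0.42).

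These counts depend on how libraries are scaled. On log2(TPM + 0.1) the median gene of rat B lay 0.68 higher on the surgical side, against 0.08 on the CPM scale, and limma's median over the genes of at least 0.5 TPM was 0.19, against -0.01 in the edgeR fit. On that scale 3245 genes (19.0%) were higher and 731 (4.29%) lower in all 3 rats. With the median difference of each rat then set to 0, a setting chosen after seeing the data, they were 2205 (12.9%) and 2118 (12.4%). Counts below are on the CPM scale, with the centred TPM count beside the main groups.

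Nuclear genes of the respiratory chain lay lower on the surgical side in each rat. Of 84 tested genes 77 had a negative log2 difference (51% of all genes did). In all 3 rats 54 (64.3%) were lower, where 13.1% of all genes were, and 0 were higher. Without overlap 40 lay below the controls, where 4.67% of all genes did. The median was -0.32, with -0.40 in rat A, -0.22 in rat B and -0.36 in rat E. On the centred TPM scale 57 were lower in all 3 rats, and on the uncentred TPM scale 14. None passed the edgeR test. At an unadjusted p under 0.05 there were 25, all lower, where 2.11% of all genes were lower. Of the list 12 were among the 39 lower genes of DESeq2 (0.229% of all genes). The neuronal level differed between the sides in rats A and B in opposite directions, and its part in these values was not tested beyond the covariate fit. Leaving out 1 rat at a time gave medians of -0.28, -0.38 and -0.32, and the neuronal level as a covariate gave -0.33.

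Small subunits had the smallest p values of the list. Cox7b (ENSRNOG00000054689), a small nuclear subunit of cytochrome c oxidase whose promoter is shown above, stood at 399, 476 and 357 CPM in the controls of rats A, B and E and at 197, 158 and 174 CPM on their surgical sides. Every surgical library lay below every control, a log2 difference of -1.22 (SE 0.19; edgeR adjusted p = 0.999). Ndufa4, once placed in complex I and now known to associate with cytochrome c oxidase, stood at 462, 424 and 450 CPM in controls and 186, 214 and 259 CPM on the surgical side, a log2 difference of -1.03 (SE 0.19). Cox6c, another cytochrome oxidase subunit, stood at 193, 219 and 217 CPM against 122 to 127 CPM (-0.76, SE 0.15). The ATP synthase subunits Atp5mg and Atp5mf had log2 differences of -0.93 (SE 0.19) and -0.84 (SE 0.18), again without overlap.

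Genes were assigned to complexes by their symbols, so Ndufa4 is counted in complex I here. The 38 tested complex I genes had a median of -0.32 with 27 lower in all 3 rats. The 9 of complex III had -0.35 with 5. The 14 of complex IV had -0.41 with 10, and the 18 of complex V, the ATP synthase, -0.36 with 10. The 4 genes of complex II, the succinate dehydrogenase, had a median of -0.08, with 1 lower in all 3. Among the 7 respiratory genes with a positive value was Cox6a2, the muscle isoform of a cytochrome oxidase subunit, named after its values were seen. It stood at 4.44 CPM in the surgical library of rat E, the one with the high muscle level, and at 0.331 to 1.52 CPM in the other 5.

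Import and mRNA handling genes of mitochondria lay lower as a group in rats A and E, with a median near 0 in rat B. Slirp (ENSRNOG00000012314), an RNA-binding protein that stabilises mitochondrial mRNA together with Lrpprc, averaged 43.9 CPM (SD 2.98, n = 3) in controls and 20.9 CPM (SD 1.15, n = 3) on the surgical side. Its library values were 41.1, 47.1 and 43.5 against 21.8, 19.6 and 21.3 CPM, a difference larger than the spread within either side (log2 -1.07, SE 0.15, unadjusted p = 0.000122). Timm8b (ENSRNOG00000009888), a chaperone of the space between the mitochondrial membranes, stood at 153, 190 and 175 against 85.9, 80.0 and 83.2 CPM (-1.05, SE 0.15). Tomm7, a small subunit of the outer membrane translocase, stood at 112, 144 and 118 against 77.1, 57.8 and 61.9 CPM (-0.93, SE 0.19). DESeq2 called all 3 of these (adjusted p = 4.4e-07, 9.1e-09 and 0.0078), and edgeR called none of them (adjusted p = 0.999). Over the 38 tested genes of this list the median was -0.26. In all 3 rats 18 (47.4%) were lower, where 13.1% of all genes were, and 0 were higher. Without overlap 13 lay below, where 4.67% of all genes did. At an unadjusted p under 0.05 there were 9, all lower, where 2.11% of all genes were lower. The rat medians of the list were -0.43, -0.02 and -0.29 in rats A, B and E, and 18 of the 38 were higher in rat B. On the centred TPM scale 20 were lower in all 3, and on the uncentred scale 5.

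Proteins of the mitochondrial ribosome, which translates the subunits of the mitochondrial genome, lay lower in each rat. The rat medians were -0.30 in A, -0.18 in B and -0.31 in E. Of 74 tested genes 72 had a negative value, with a median of -0.29. In all 3 rats 49 (66.2%) were lower, where 13.1% of all genes were. Without overlap 26 lay below, where 4.67% of all genes did. On the centred TPM scale the count was 45, and uncentred 9. Mrps18c, of the small subunit, had a log2 difference of -1.19 (SE 0.26), and Mrpl1, of the large subunit, -0.90 (SE 0.21). Chchd1, a component of the small mitochondrial subunit that was named by its p value and not by a list, stood at 80.9, 101 and 66.4 against 50.7, 31.6 and 37.1 CPM (-1.06, SE 0.22).

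The 13 protein genes of the mitochondrial genome itself did not share this pattern between rats. Their medians were 0.26 in rat A, -0.83 in rat B and 0.09 in rat E, and 0 of the 13 were lower in all 3. The fitted median of -0.11 turned to 0.10 on the TPM scale, to 0.15 with the length trend removed and to 0.21 without rat B.

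The catalytic core of the proteasome, the barrel of alpha and beta subunits that degrades proteins, lay lower more evenly than its regulatory cap. Of 16 tested core genes 13 were lower in all 3 rats, where 13.1% of all genes were. The median was -0.36, with rat medians of -0.45, -0.42 and -0.41. Centred TPM gave 14 and uncentred 1. Psma2 stood at 203, 178 and 222 against 139, 122 and 133 CPM (-0.61, SE 0.15), and Psmb4 and Psmb6 at -0.68 (SE 0.17) and -0.57 (SE 0.15), each without overlap. Of the 18 genes of the regulatory particle 1 was lower in all 3, with a median of -0.12 that was 0.29 in rat B and 0.10 on the uncentred TPM scale. The difference between core and cap was not tested. The core genes have shorter transcripts, at a median length percentile of 10.3 with 14 of 16 in the shortest of 5 length bins. The cap stood at 26.7 with 3 of 18. With the trend in length (described below) removed, the medians were -0.13 for the core and -0.01 for the cap. Among genes outside these lists, Tmem208, linked to protein targeting to the endoplasmic reticulum, had -0.64 (SE 0.13), Naa38, a subunit of an N-terminal acetyltransferase, -0.65 (SE 0.14), and LOC103694416 -0.92 (SE 0.16).

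Cytosolic ribosomal proteins, in contrast, lay lower in rats B and E and higher in rat A. Of 84 tested genes 82 were negative, with a median of -0.41. Yet 12 (14.3%) were lower in all 3 rats, near the 13.1% of all genes. The rat medians were 0.14 in A, -1.16 in B and -0.23 in E. On the surgical side 72 of the 84 were higher in rat A, 0 in rat B and 2 in rat E. Without rat B the fitted median was -0.04, and without rat A it was -0.70. Rps27a, which encodes a ribosomal protein fused to ubiquitin, stood at 1072, 1508 and 731 against 905, 351 and 357 CPM (-1.12, SE 0.37), and its groups overlapped.

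**Figure D3:**
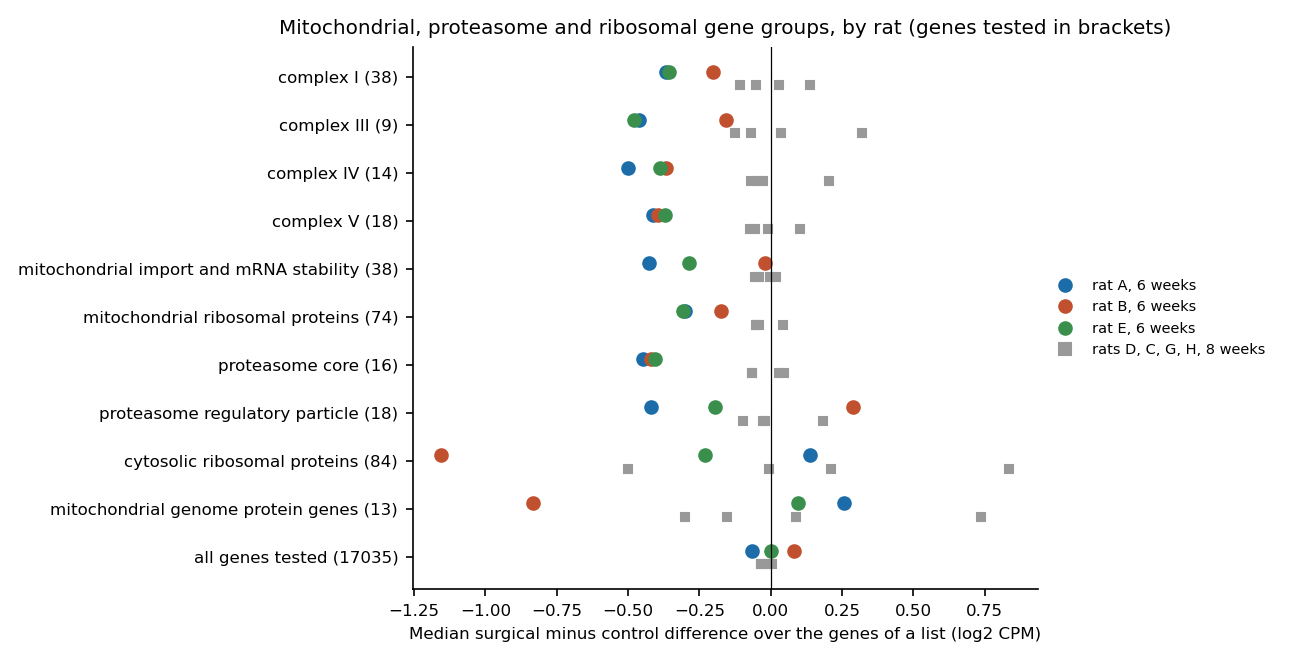
Median surgical minus control difference (log2 CPM) over the genes of each group, with a coloured circle per 6-week rat and grey squares for the 4 rats at 8 weeks. For complexes I, III, IV and V and the proteasome core all 3 circles lie left of 0, while cytosolic ribosomal genes run from -1.16 in rat B to 0.14 in rat A.

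Many of these genes have short transcripts, and at 6 weeks the side difference varied with transcript length across the genome. Relative length was taken as count over TPM for 15910 genes. The fitted difference correlated with it at a Spearman of 0.405, and the differences of single rats at 0.07 (A), 0.30 (B) and 0.33 (E). At 8 weeks the fitted difference stood at -0.02. Single rats there stood at 0.09 (D), -0.10 (C), -0.07 (G) and 0.18 (H), so D and H lay above rat A. In 5 bins of 3182 genes each, from the shortest to the longest, the medians were -0.23, -0.09, -0.01, 0.07 and 0.17. Of the shortest bin 30.1% were lower in all 3 rats and 4.43% higher, and of the longest 3.36% were lower and 24.5% higher. The respiratory chain genes lay at a median length percentile of 6.86, with 65 of the 83 that had a length in the shortest bin. Of the 39 lower genes of DESeq2, 33 were in the shortest bin.

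With the trend in length removed from each library, the respiratory chain median became -0.04 with 52 of 84 negative, and 7 had an unadjusted p under 0.05. The medians of the mitochondrial ribosome, import and proteasome core lists became -0.04, -0.12 and -0.13. Among single genes Cox7b then stood at -0.83, Slirp at -0.69, Timm8b at -0.67, Ndufa4 at -0.73 and Tomm7 at -0.56. Atp5mg at the 39.2 percentile of length and Psma2 at the 70.4 percentile, given because they are not short, stood at -0.87 and -0.70. Before the removal they stood at -0.93 and -0.61. At such lengths the removed trend is smaller or runs the other way, so these values do not bear on the short genes. Whether RNA quality or fragment size moved with the sides was not tested, since no such value was given in the sources used here.

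**Figure D4:**
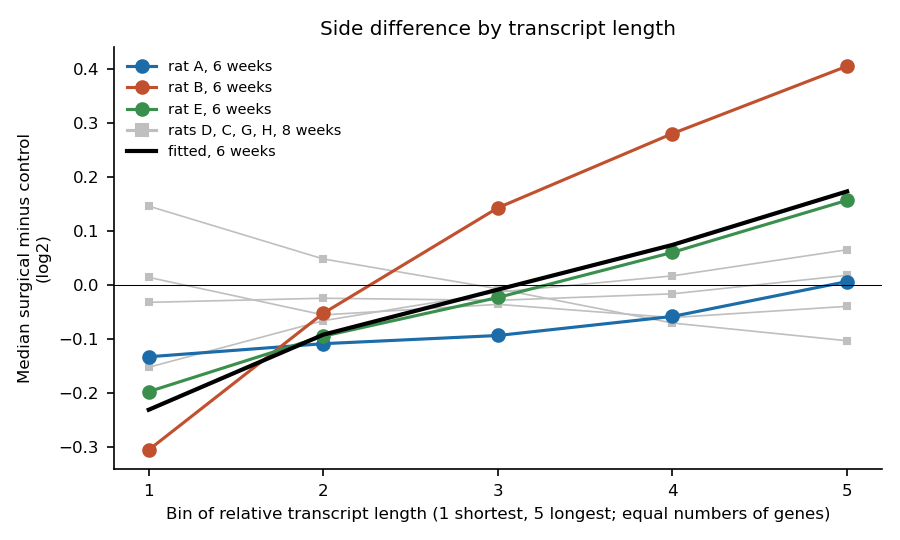
Median surgical minus control difference (log2) in 5 bins of relative transcript length, from 1 (shortest) to 5 (longest), for each rat and for the fitted 6-week difference in black. The black line runs from -0.23 to 0.17, and the grey 8-week rats slope in both directions.

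The 6-week values of single genes were set against the range of the 8 libraries at 8 weeks. For Slirp the 8-week libraries spanned 18.8 to 22.8 CPM, so all 3 surgical libraries at 6 weeks lay inside that range and all 3 controls above it. For Timm8b the range was 67.3 to 83.8 CPM, again below every 6-week control. For Cox7b, at 115 to 171 CPM, the controls of 357 to 476 CPM lay above it, as did the surgical libraries of rats A and E. In TPM every control of these 3 genes also lay above the 8-week range. The surgical library of rat A then lay below it for Slirp (50.6 against 66.0 to 103 TPM). For Cox7b all 3 surgical libraries then lay inside (651 to 860 against 595 to 934 TPM). Over the respiratory chain list the picture was mixed: for 20 of 84 genes all 3 controls lay above all 8-week libraries, where 7.01% of all genes did. For 15 of 84 all 3 surgical libraries lay below them, where 2.46% of all genes did. The opposite placements were fewer, with controls below for 2 genes (4.63% of all genes) and surgical libraries above for 4 (2.44%). On the TPM scale the counts were 6 and 30, with 261 and 876 among all 17035 genes. Times were sampled in different rats, so the time and the set of libraries cannot be told apart. The tissue held differed too. Myelinating Schwann cell markers stood at 6.90 to 7.80 in the 6-week libraries and at 4.89 to 6.60 in the 8-week ones (mean log2 CPM). Sensory neuron markers lay below the 8-week range of 8.00 to 9.15 in both libraries of rat A and in the control of rat B. The part of tissue in these placements was not tested.

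The side difference itself was compared between the times in the same fit. At 8 weeks the respiratory chain median was -0.00, with 2 of 84 genes lower in all 4 rats, and those of the mitochondrial ribosome and import lists were -0.00 and -0.01. For Slirp the difference was -0.04 at 8 weeks, for Timm8b -0.09 and for Cox7b -0.07. In the test of 6 minus 8 weeks edgeR called 0 of 17035 genes (0%), with 252 (1.48%) at an unadjusted p under 0.05, 11 of them in the respiratory chain list. DESeq2 called 5, all lower (0.0294%), namely Timm8b, Cox6c, Slirp, LOC103694416 and Cox7b. The unadjusted p of this difference was 0.000884 for Slirp, 0.00133 for Timm8b and 0.00219 for Cox7b (edgeR, adjusted p = 1 for each). Slirp, Timm8b and Cox7b are among the genes named by their small p at 6 weeks, and this contrast reused the same 6-week values. Their unadjusted p values here are therefore a description and no independent test.

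Among genes higher on the surgical side, Ddx6 (ENSRNOG00000053932), an RNA helicase of P-bodies that represses translation and promotes decapping, had the smallest p of the naming rule. It stood at 27.4, 21.0 and 25.2 CPM in controls and at 40.4, 41.6 and 34.4 CPM on the surgical side, without overlap (0.66, SE 0.16, unadjusted p = 0.00334). At 8 weeks its libraries spanned 30.2 to 37.7 CPM, so the 3 controls at 6 weeks lay below that range and the surgical libraries of rats A and B above it. Of 49 tested genes of mRNA decay and translational repression 17 (34.7%) were higher in all 3 rats, where 12.3% of all genes were. Lower in all 3 were 7 (14.3%), where 13.1% of all genes were, and the median was 0.09. Subunits of the Lsm ring, which binds mRNA ends, were among the lower ones, with Lsm5 at -0.79 (SE 0.25) and Lsm7 at -0.43 (SE 0.16). The list was also positive at 8 weeks, with a median of 0.11 and 2 genes higher in all 4 rats. Its negative values numbered 8 at 8 weeks and 17 at 6 weeks. With the trend in length removed the 6-week median was 0.06.

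The other genes of the rule on this side mostly had long transcripts. Trip11, a Golgi tethering protein, stood at 15.8, 12.6 and 14.1 against 21.3, 23.2 and 21.3 CPM (0.63, SE 0.17) at the 94.1 percentile of length. Rictor, the defining subunit of mTOR complex 2, stood at 6.45, 4.86 and 8.65 against 11.5, 16.9 and 10.8 CPM (0.98, SE 0.28) at the 95.4 percentile. Nsd1, a histone methyltransferase, had 0.67 (SE 0.20), Arhgap26 0.80 (SE 0.22), the kinase Taok1 0.65 (SE 0.19), the carboxypeptidase Cpd 0.61 (SE 0.18) and the kinesin Kif13a 0.60 (SE 0.19), each without overlap. Sh3pxd2a, a scaffold of podosomes, had 0.60 (SE 0.19) with overlap. Soga1, called by DESeq2, stood at 4.72, 2.85 and 3.97 against 8.16, 7.37 and 6.95 CPM (0.98, SE 0.24). With the length trend removed Trip11 stood at 0.43, Rictor at 0.78 and Soga1 at 0.77, while Ddx6, at the 54.4 percentile, stayed at 0.65.

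The calcium channel adaptor Stac2 and the injury neuropeptide genes Gal and Vip lay above the controls without overlap. Stac2 (ENSRNOG00000004805), which binds voltage-gated calcium channels, stood at 1.22, 0.727 and 0.946 CPM in controls and at 4.19, 31.6 and 5.95 CPM on the surgical side. The groups did not overlap, the surgical value of rat B was the highest, and the log2 difference was 3.22 (SE 0.98; DESeq2 adjusted p = 0.040; edgeR adjusted p = 0.999). Without rat B it was 2.21, and at 8 weeks it was 3.46, higher in 4 of 4 rats. Vip, the vasoactive intestinal peptide gene, stood at 0.667, 0.0559 and 0.189 CPM in controls, from 12, 1 and 4 counts, and at 0.816, 6.38 and 5.90 CPM on the surgical side. Rats B and E showed the high surgical level and rat A did not (3.75, SE 1.53, unadjusted p = 0.0426). Gal, the galanin gene, stood at 7.89, 5.92 and 3.97 against 15.0, 11.9 and 11.6 CPM, without overlap, with log2 differences of 0.92, 1.00 and 1.53 in rats A, B and E (fitted 1.16, SE 0.64, unadjusted p = 0.112).

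**Figure D5:**
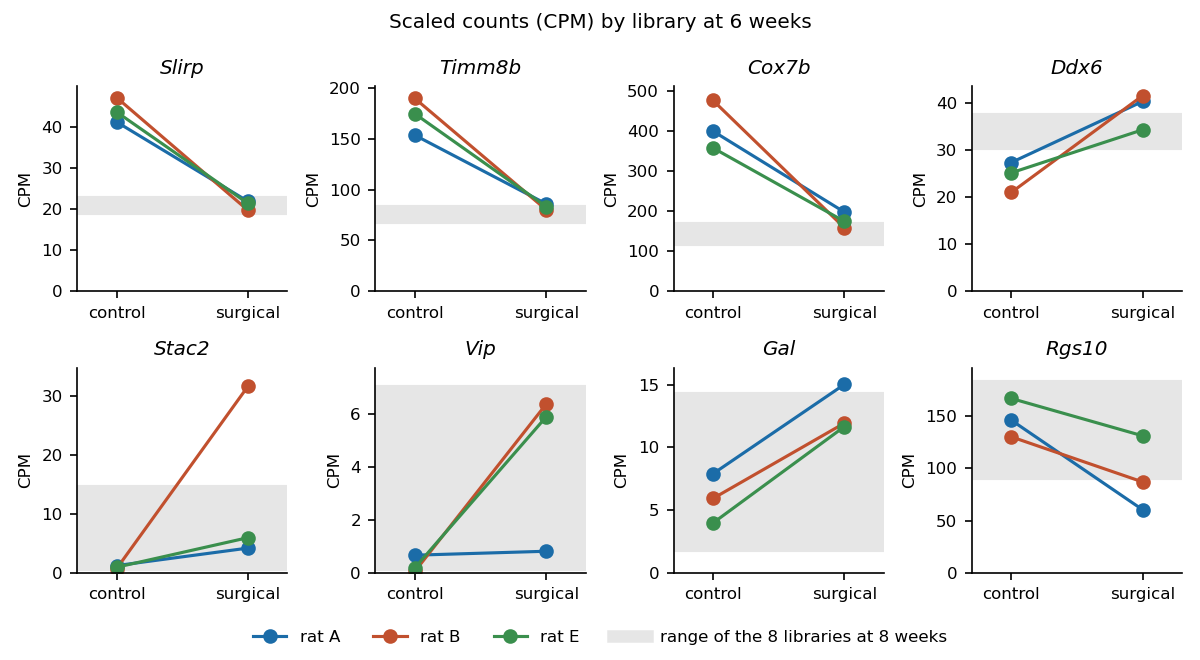
CPM (y) of 8 genes on the control and surgical side, with a coloured line per rat and a grey band for the range of the 8 libraries at 8 weeks. For Slirp, Timm8b and Cox7b every control lies above the band, for Ddx6 every control lies below it, and the high surgical Vip values belong to rats B and E.

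In all 3 rats 12.3% of all genes were higher and 13.1% lower. Of the 16 tested injury neuropeptides and receptors 3 (18.8%) were higher in all 3 rats, 2 of them without overlap (Gal and Vip). Another 2 (12.5%) were lower, and the median of the list was 0.36. The rat medians were -0.37, 1.24 and 0.48, and without rat B the fitted median was -0.09. Npy, a neuropeptide of injured large neurons, lay at 210, 121 and 10.6 CPM in controls and 89.9, 48.0 and 23.5 CPM on the surgical side, with rat E opposite to the others (-0.53, SE 0.54). Transcription factors and signals of the injury response did not lie to one side, with a median of -0.01 over 19 genes, 2 higher in all 3 rats and 1 lower. Atf3 stood at 16.7, 39.5 and 18.8 against 26.0, 29.9 and 26.4 CPM (0.24, SE 0.49), Sox11 at 0.64 (SE 0.45), Jun at -0.10 (SE 0.21) and Csf1, a signal to macrophages and microglia, at 0.07 (SE 0.34). The 2 higher in all 3 rats were Smad1, a growth-associated transcription factor, at 0.27 (SE 0.17) without overlap, and Ecel1, a peptidase induced by nerve injury, at 1.86 (SE 0.81). Of 19 tested axon growth genes 2 were higher in all 3 rats, Stac2 and Arg1, the arginase gene (0.83, SE 0.37), and 2 lower, among them Lgals1 (-0.41, SE 0.25). The growth cone gene Gap43 had the sign of the neuronal difference in rats A and B, at -0.93 in rat A, 0.84 in rat B and 0.23 in rat E. Gap43 is itself among the sensory neuron markers, so that shared sign is partly built in.

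Voltage-gated calcium channel subunits and Stac adaptors had 16 of 19 positive values and a median of 0.53, yet 3 were higher in all 3 rats, Stac2, Cacna1e (1.36, SE 0.60) and Cacnb2 (0.91, SE 0.45). The rat medians were -0.70 in A, 1.64 in B and 0.23 in E, and without rat B the fitted median was -0.15. Cacna2d1, the gabapentin target, stood at 9.28, 3.30 and 21.1 against 5.6, 23.0 and 38.8 CPM (0.96, SE 0.60). Sodium channels had a median of 0.25 over 13 genes and potassium channels 0.28 over 38, with rat medians of -1.54, 1.68 and 0.44 and of -1.39, 1.74 and 0.21. Without rat B these medians were -0.61 and -0.59. Inhibitory receptors had 0.20 over 28 genes, with rat medians of -1.42, 1.95 and 0.08 and a median of -0.60 without rat B. Of them 4 (14.3%) were higher in all 3 rats, where 12.3% of all genes were. They included Sstr1, a somatostatin receptor (1.68, SE 0.59), and Oprm1, the mu opioid receptor (1.15, SE 0.54), both below 7 CPM in every 6-week library. The potassium channel gene Kcnk3 had 1.04 (SE 0.43). Spinal cord neurons express most of these channels and receptors, and the surgical library of rat B held Slc32a1, a transporter of inhibitory neurons, at 50.9 CPM against 0.0946 to 1.73 CPM in the other 5. Its part in the channel values was not tested beyond the values without rat B.

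Markers of neuron classes had the sign of the neuronal level in rats A and B. Peptidergic nociceptor genes had rat medians of -1.87, 1.32 and 0.33, non-peptidergic and itch genes -1.91, 0.70 and 0.46, and proprioceptor and touch genes -1.02, 1.24 and -0.07, with 0, 2 and 2 genes lower in all 3 rats and 0 higher in each list. Calca, the CGRP gene, stood at 419, 227 and 816 against 108, 402 and 736 CPM (-0.41, SE 0.53), and the substance P gene Tac1 at -0.78 (SE 0.62). The heat channel Trpv1 stood at 0.10 (SE 0.56), the sodium channel Scn10a at 0.08 (SE 0.77), and the ATP receptor P2rx3 and the itch and pain receptor Mrgprd at -0.23 (SE 0.71) and -0.12 (SE 0.60). The proprioceptor genes Pvalb, Runx3 and Ntrk3 stood at -0.29 (SE 0.60), -0.15 (SE 0.28) and 0.03 (SE 0.41). Against that background Rgs10, a regulator of G-protein signalling, lay lower in all 3 rats, at 146, 130 and 167 against 60.4, 86.9 and 131 CPM, with overlap (-0.73, SE 0.21, unadjusted p = 0.00848). Fxyd2, a sodium pump subunit of nociceptors, did so too, at 164, 131 and 252 against 92.2, 80.3 and 243 CPM (-0.53, SE 0.26). Both were lower in 4 of 4 rats at 8 weeks. Among neurotrophic genes the GDNF relative Pspn lay lower without overlap (-0.62, SE 0.27), and the 22 tested had a median of 0.02, which was -0.12 without rat B.

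Glial genes gave no shared direction. Myelinating Schwann cell genes had rat medians of 0.61, -1.04 and 0.03, and 3 of 20 (15%) were higher in all 3 rats. Of all genes 12.3% were higher in all 3 rats. Satellite glia genes had a median of 0.14 with 5 of 19 (26.3%) higher in all 3. Repair Schwann cell genes had 0.23 with 4 of 14 (28.6%). Among these 4 was Olig1, at 1.79 CPM on the control and 73.1 CPM on the surgical side of rat B. Rat B had medians of 1.00 and 0.99 for satellite glia and repair Schwann cell genes. Without that rat the fitted medians were -0.10 and -0.01. Gfap, an intermediate filament of activated glia and of central astrocytes, stood at 31.1, 31.3 and 10.5 against 56.5, 246 and 15.3 CPM (1.44, SE 0.47). It was highest in the surgical library of rat B, which also held the oligodendrocyte gene Mog at 55.5 CPM against 0.189 to 1.62 CPM elsewhere. Without rat B Mog stood at 1.59. Over the 21 tested spinal cord genes 11 (52.4%) were higher in all 3 rats, with a median of 1.53 and of 0.43 without rat B.

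Immune and stromal lists largely followed rats A and B in opposite directions. Rat medians were 0.33, -0.79 and -0.07 for macrophages, 0.38, -1.01 and -0.13 for MHC class II and interferon genes, and 0.63, -1.78 and -0.19 for fibroblasts and collagens. Of these 22, 27 and 24 genes 1 in each list was higher and 0 lower in all 3 rats. Cytokine and chemokine genes had a median of -0.56, with 3 of 21 (14.3%) lower in all 3, and 0.01 without rat B. Of all genes 13.1% were lower in all 3. Ccl2, a chemokine for monocytes, stood at 29.5, 39.1 and 34.6 against 27.1, 11.2 and 18.3 CPM, without overlap (-0.94, SE 0.36, unadjusted p = 0.0312). Neutrophil genes were positive for 14 of 14 with a median of 0.30. Red blood cell genes had 0.29 with 7 of 15 (46.7%) higher in all 3, where 12.3% of all genes were. Without rat E these medians were 0.00 and 0.04. T, B and NK cell genes had a median of 0.04, and 0.34 without rat B. Muscle genes had 1.11, with 9 of 28 (32.1%) higher in all 3, and 0.02 without rat E. Endothelial and mural genes had a median of -0.04, and 0.23 without rat B. Within them Abcc9, a potassium channel regulator of pericytes, stood at 3.72, 2.79 and 1.99 against 6.58, 4.84 and 5.07 CPM (0.98, SE 0.44). Adipocyte genes had a median of -0.13, C-LTMR genes 0.07, immediate early genes -0.18, circadian clock genes 0.04 and cholesterol synthesis genes -0.03. Without rat B these medians were 0.06, -0.26, 0.24, 0.17 and -0.11. The clock gene Bmal1 was higher by 0.27, 0.30 and 0.28 in rats A, B and E, without overlap (0.29, SE 0.19).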

How the data were processed

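RNA of 14 rat ganglion libraries was analysed, of which 6 carry the comparison. The authors deposited estimated counts (expected counts, whole numbers) and TPM for each gene. They ran, per the submitters' processing notes, FastQC, Trim Galore, Salmon and DESeq2. Versions and genome build are not given in the sources used here. The labels name both polyA RNA and ribosomal depletion. Sides were paired by the rat letter in the titles, so the pairing is the animal. In the titles of 2 rats at 8 weeks the letters C and D are exchanged against the column names, within which each pair stays intact.

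Estimated counts were tested with edgeR 4.0.16 (R 4.3.3; filterByExpr with a minimum count of 10, TMM, robust quasi-likelihood, two-sided) over all 14 libraries with the rat as a block and a side effect at each time, which leaves 5 residual degrees of freedom. The SE is the log2 difference divided by the square root of F. Per-library differences used log2 CPM with a prior count of 2. Exact tests over 3 pairs cannot go below p = 0.25, and none is given. P values measure the spread between these rats. The script was tested on simulated data. Alternatives were DESeq2 1.42.0, limma 3.58.1 (log2 of TPM plus 0.1 or plus 1), other scalings, filters and prior counts, no block, each rat left out, the neuronal level as a covariate, a lowess length trend (span 0.3) removed, and only the 6-week libraries.

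The comparison and the 37 gene lists were chosen with earlier results of these data known. Named genes are the 12 with the smallest p in each direction among those with a unique symbol, a mean of at least 1 TPM and the same direction in all 3 rats, a fixed list, the 3 smallest p of each list and the first 10 by DESeq2 in each direction. Of the 44 genes of DESeq2, 3 had 0 counts in all 6-week libraries of 1 side. They, and genes that share a symbol, are not described, since reads of near-identical copies may be split. Promoters are from RefSeq (GRCr8), matched by symbol.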

Additional observations from a re-analysis of the deposited data

Results flagged for a closer look

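Among the named genes, Oprm1 and Bmal1 had one direction in every rat at 6 weeks and the opposite one in every rat at 8 weeks. They were picked for that pattern, so the p values below are a description and no independent test. Of the 17035 genes 40 (0.235%) had it, and 44 (0.258%) had the reverse. Oprm1, the mu opioid receptor gene, lay higher in the grafted ganglia of all 3 rats at 6 weeks (log2 difference 1.15) and lower in 4 of 4 at 8 weeks (-0.73). The difference between the times had an unadjusted p of 0.0301 (edgeR adjusted p = 1). Bmal1, a clock gene, was higher in 3 of 3 rats at 6 weeks (0.29) and lower in 4 of 4 at 8 weeks (-0.12), with an unadjusted p of 0.137 for the difference (edgeR adjusted p = 1).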

How the results depend on the processing

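Genes with an adjusted p under 0.05 at 6 weeks numbered 0 in the edgeR fit, 2 with no replicate block, 44 with DESeq2 and 0 under the other alternatives. The 546 at an unadjusted p under 0.05 became 830 with no replicate block, 837 with DESeq2, 301 with the length trend removed, 2193 with the neuronal covariate, 346 with limma on log2(TPM + 1), 873 with limma and no filter, 358 with only the 6-week libraries and 319 (without rat E) to 1002 (without rat A) with 1 rat left out. For 6 minus 8 weeks DESeq2 called 5, and the 252 unadjusted became 447, 439, 1344 and 581 with no replicate block, DESeq2, the covariate and unfiltered limma, and 173 to 751 with 1 rat left out. The pairing is by animal. With no replicate block Slirp and Timm8b passed the test, Mrgprd and P2rx3 turned, and no other named gene changed its call. Genes higher by at least 1 log2 unit in all 3 rats numbered 40 with a prior count of 0.5, 11 with 5, 15 on TPM and 14 on centred TPM. On TPM 3245 were higher and 731 lower in all 3 rats, 7 lower by at least 1, and 804 above and 213 below without overlap (290 below when centred). The cause was not tested.

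Directions turned for Jun (0.12 with limma on either TPM scale), Runx3 (0.053 and 0.068 with limma), Csf1 (-0.033), Scn10a (-0.13) and Mrgprd (0.17) with the length trend removed, Mrgprd with limma (0.11), and Mrgprd (0.30) and P2rx3 (0.060) with no replicate block. With 1 rat left out the ranges crossed 0 for Jun (-0.26 to 0.12), Gap43 (-0.34 to 0.53), Csf1 (-0.067 to 0.16), Calca (-1.05 to 0.34), Tac1 (-1.35 to 0.039), Trpv1 (-0.63 to 0.93), Scn10a (-0.88 to 1.16), Mrgprd (-0.65 to 0.74), P2rx3 (-1.10 to 0.77), Pvalb (-0.67 to 0.11) and Ntrk3 (-0.083 to 0.11). In all, 963 values of single genes under an alternative stayed on their side, 23 passed the threshold in addition (DESeq2 or no block) and 27 turned. With 3 pairs and 5 residual degrees of freedom, low genes such as Vip rest on few counts.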
